A study of Homo sapiens with 6 samples.

Results

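The integrated stress response and the unfolded protein response were described here by 33 genes, chosen by symbol from a list of ATF4, genes that ATF4 is known to drive, the sensors of stress in the endoplasmic reticulum (ER) and the ER chaperones. All 33 were found among the 28395 genes of the count table by NCBI gene ID, and all 33 passed the filter on low counts. They comprised 21 genes of the ATF4 arm (ATF4 and 20 of its targets), 4 genes of the sensor group (ERN1, EIF2AK3, ATF6 and XBP1) and 8 ER chaperones and related factors. In NUAK2-CR cells every one of the 21 ATF4 arm genes rose, with a median log2 fold change of 1.14, whereas 6 of the 8 chaperone genes fell, with a median of -0.57 over the 8. Of all genes tested, 26.3% were called higher and 28.2% lower at the same threshold, an adjusted p under 0.05.

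U251MG is an established human glioblastoma cell line. Polyadenylated RNA was sequenced in 3 WT libraries and in 3 from NUAK2-CR cells, where the kinase gene NUAK2 had been targeted with CRISPR-Cas9, to ask which transcripts depend on NUAK2. No drug or stressor is named in the labels for either genotype. In the study's methods, 1 guide was delivered by GFP and mCherry lentiviral vectors. Doubly fluorescent cells were sorted into wells and grown as clones. The labels name no clone for these libraries, and name no vector for the WT cells. The effect of losing NUAK2 was not tested apart from differences of clone or vector between the genotypes. The study's methods speak in general of independent experiments, but neither they nor the labels say that the libraries of a genotype came from separate cultures, so the p-values measure the spread between these libraries, which may be technical.

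When proteins misfold in the ER, or when amino acids or heme run short, kinases phosphorylate the translation factor eIF2, general protein synthesis slows and the mRNA of the transcription factor ATF4 is translated more. ATF4 then drives genes for amino acid supply, redox balance and feedback on the response itself. A separate set of ER sensors, IRE1 (ERN1) through spliced XBP1 and cleaved ATF6, drives the chaperones that fold secreted proteins, so the ATF4 arm and the chaperone arm can be read apart. Only RNA levels were measured here, not phosphorylation, splicing or protein.

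Counts per library ranged from 29648445 to 55574081, with WT replicate 1 the deepest. Where values of single libraries follow, they are in the order of replicates 1, 2 and 3. NUAK2 itself had 1926, 1457 and 1580.1 normalized counts in the WT libraries and 799, 961 and 849 in the NUAK2-CR libraries, which was 52.6% of the WT mean (log2 fold change -0.93, SE 0.11, adjusted p = 1.8e-05, edgeR quasi-likelihood test with Benjamini-Hochberg adjustment over all genes tested). The groups did not overlap, and the 20 tested genes nearest to NUAK2 had a median log2 fold change of -0.82. Of 14873 genes tested, 3912 (26.3%) were higher and 4195 (28.2%) lower in NUAK2-CR at an adjusted p under 0.05, and normalized counts of the groups did not overlap for 61.4%. Among the astrocyte and glioma markers, 6 of 9 tested were lower and none higher, with GFAP at -2.56, S100B at -2.60 and NES at -1.56 on the log2 scale, and AQP4, a marker of mature astrocytes, had at most 2 counts in any library. Of the 9 markers of other cell types, 5 were tested, of which 1 was higher, 2 were lower and 2 were not called. PTPRC, of blood cells, and EPCAM, of epithelium, had at most 3 and 4 counts in any library. CSF1R (-2.46) and MBP (-1.99) were lower in NUAK2-CR and PECAM1 was higher at no more than 16.9 normalized counts. Of the 6 proliferation markers, PCNA (0.90) and MCM2 (0.61) were higher and 4, among them CCNB1 (-1.51), BIRC5 (-1.02) and TOP2A (-0.97), were lower. The part of these markers in the values of the stress genes was not tested, and in bulk RNA more expressing cells and more RNA per cell cannot be told apart.

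Short stretches of the promoters of 8 members are shown because they hold the DNA elements that classically separate the ATF4 arm from the chaperone arm. Promoter sequences, from 250 bases before to 50 bases after an annotated start site, came from RefSeq on GRCh38.p14 and were matched for 28 of the 33 members. ALDH1L2, INHBE, NUPR1, PSPH and SHMT2 had no entry. Each sequence is written 5′ to 3′ on the strand of the gene, and capitals mark the matched element on either strand. The first 4 hold the C/EBP-ATF element, TGATGNAA, to which ATF4 binds with a C/EBP partner.
ASNS: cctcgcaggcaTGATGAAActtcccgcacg
CHAC1: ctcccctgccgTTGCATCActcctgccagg
CEBPG: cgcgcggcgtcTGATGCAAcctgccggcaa
HERPUD1: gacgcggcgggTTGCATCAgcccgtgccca

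In genome coordinates of GRCh38.p14 the ASNS window was chr7:97872458-97872487 on the minus strand. The windows of CHAC1 (chr15:40953251-40953280), CEBPG (chr19:33374060-33374089) and HERPUD1 (chr16:56931955-56931984) were on the plus strand. Counted from the start site, the first base of the element was at -68 in ASNS, -209 in CHAC1, -42 in CEBPG and -176 in HERPUD1. In CHAC1 and HERPUD1 the element read on the opposite strand, as the reverse complement. It was in 3 of the 16 ATF4 arm genes with a promoter, in 1 of 8 chaperone genes (HERPUD1), in 4.46% of all 27305 genes with one and in 2.85% of the tested genes with one. The log2 fold changes of those 3 genes ran from 0.20 to 1.87 with a median of 1.26, and the 13 ATF4 arm genes without a match had a median of 0.88 and ran from 0.45 to 3.00, so the ranges overlapped.

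The other 5 stretches hold the ER stress element, which is CCAAT, then 9 bases of any kind, then CCACG, and is known to bind ATF6 together with NF-Y.
HSPA5: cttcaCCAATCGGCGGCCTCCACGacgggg
HSP90B1, distal: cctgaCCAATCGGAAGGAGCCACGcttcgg
HSP90B1, proximal: gggtgCGTGGTGCGGCGCGATTGGtgggtt
CALR: ccacgCGTGGTCGACCATCATTGGtcggtg
XBP1: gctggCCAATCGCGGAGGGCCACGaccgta

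These stretches lay at chr9:125241385-125241414 (minus strand) for HSPA5, chr12:103930211-103930240 and chr12:103930316-103930345 for HSP90B1, chr19:12938379-12938408 for CALR and chr22:28800597-28800626 (minus strand) for XBP1. The first base of the element was at -66 in HSPA5, -194 and -89 in HSP90B1, -225 in CALR and -52 in XBP1. The proximal HSP90B1 match and the CALR match read on the opposite strand. The element was in 3 of 8 chaperone genes, in XBP1, in 0 of 16 ATF4 arm genes, in 0.0916% of all genes with a promoter and in 0.137% of the tested ones. The 3 chaperone genes that hold it all fell in NUAK2-CR, while XBP1 had a log2 fold change of 0.27 that did not pass the test. Of the chaperone genes without a match, SDF2L1 (-1.24), PDIA4 (-0.72) and DNAJC3 (-0.66) fell as well. HERPUD1 (0.28) rose and DNAJB9 (0.29) was not called. The core TGACGTGG, bound by XBP1 and ATF6, whose reverse strand shares CCACG with the ER stress element, was in 0 of 28 members with a promoter, in 0.927% of all genes with a promoter and in 1.24% of the tested ones. A match is a description of the letters in these windows and does not show that a factor was bound.

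Across the 33 members, 22 were higher in NUAK2-CR, 8 were lower and 3 were not called, against 26.3% and 28.2% of all tested genes called higher and lower. The groups did not overlap for 30 members, against 61.4% of all tested genes. Of the 22 higher genes, 4 passed the thresholds of a differentially expressed gene (DEG), an adjusted p under 0.05 with an absolute log2 fold change over 2, which 1.89% of all tested genes passed upward and 2.83% downward. These 4 were NUPR1, ALDH1L2, INHBE and GDF15, and no member was a DEG downward. At an absolute log2 fold change over 1, 11 members were higher, against 6.91% of tested genes, and 1 was lower, against 6.96%. The median over all tested genes was -0.0099, so changes are read against a centre near 0.

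**Figure D1:**
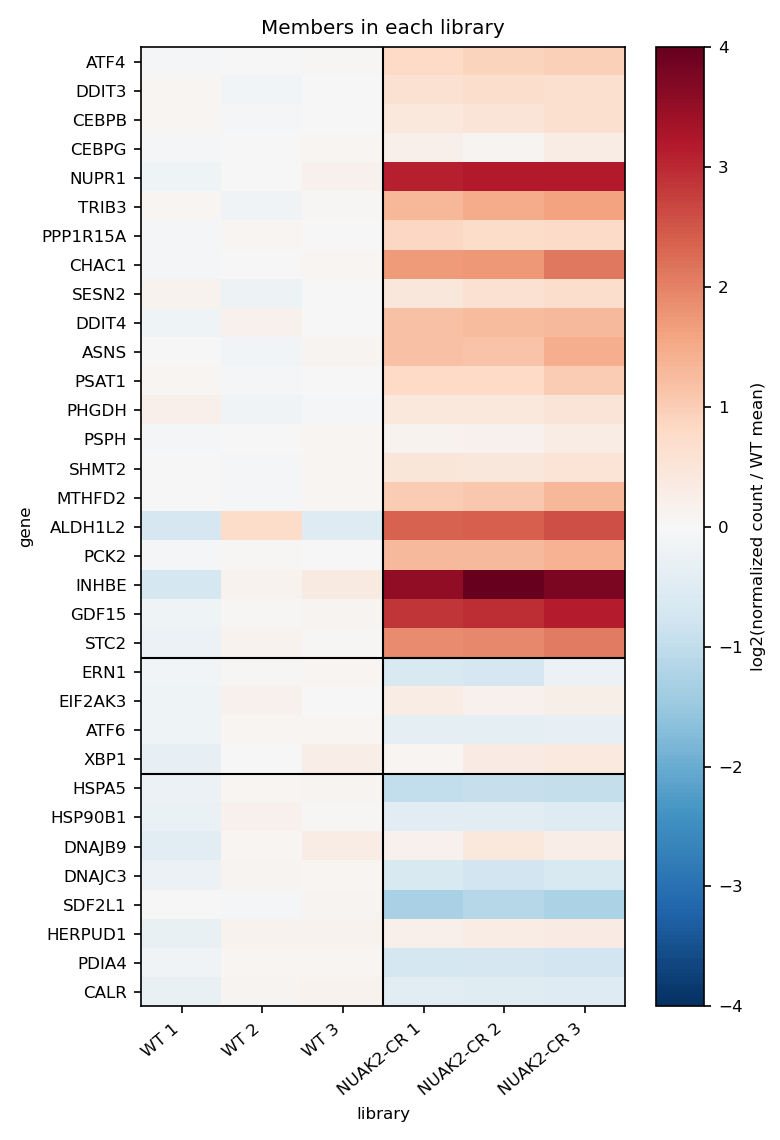
Heat map of the 33 members (rows, with lines between the ATF4 arm, the sensors with XBP1 and the chaperones) in the 6 libraries (columns), coloured by log2 of the normalized count over the WT mean. The 21 ATF4 arm genes are above the WT mean in each of the 3 NUAK2-CR libraries, most strongly INHBE, NUPR1 and GDF15, while HSPA5 and SDF2L1 are the deepest blue of the chaperones.

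The genes grouped as transcription factors of the ATF4 arm rose in 5 of 5 cases, against 26.3% of all tested genes called higher. Their median log2 fold change was 0.65. ATF4 (gene ID 468, chr22:39520559-39522686) had 7815, 8287 and 8335 normalized counts in the WT libraries and 14093, 15006 and 15610.0 in the NUAK2-CR libraries. The lowest NUAK2-CR library stood well above the highest WT library, and the rise was 1.83-fold (log2 fold change 0.87, SE 0.068, adjusted p = 4.32e-07). NUPR1, a small stress-induced chromatin protein (gene ID 26471, chr16:28532708-28538974), had 293, 328 and 372 normalized counts in the WT libraries and 2865, 3005 and 2994 in the NUAK2-CR libraries. Its 8.93-fold rise was the steepest of these 5 genes (log2 fold change 3.17, SE 0.095, adjusted p = 1.58e-10). The NUAK2-CR counts varied little between libraries. A long non-coding RNA on the same strand, which the count table does not list, overlaps 14.7% of the NUPR1 exon bases.

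DDIT3 encodes CHOP, the C/EBP family factor linked to cell death under prolonged ER stress. It had 623, 542 and 594 normalized counts in the WT libraries and 891, 955 and 917 in the NUAK2-CR libraries, with no overlap (log2 fold change 0.65, SE 0.089, adjusted p = 5.78e-05). The 20 genes around DDIT3 had a median of 0.32, and 24.3% of its exon bases overlap MARS1 on the opposite strand, so its value is less certain. CEBPB, a C/EBP factor that pairs with ATF4, had normalized counts of 1390.4 ± 72.3 in WT and 1995 ± 149 in NUAK2-CR (SD, n = 3) and rose by 0.52 on the log2 scale (adjusted p = 0.000141). CEBPG, a further C/EBP partner of ATF4, had the smallest rise of the 5, with 1796, 1930.3 and 2005 in WT and 2208, 2041 and 2345 in NUAK2-CR (log2 fold change 0.20, adjusted p = 0.0402). The CEBPG call rested on single libraries: its adjusted p was 0.0639 without WT replicate 1, 0.0687 without WT replicate 2, 0.0776 without NUAK2-CR replicate 1 and 0.188 without NUAK2-CR replicate 3.

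The genes that damp the response or restrain growth rose in 5 of 5 cases, against 26.3% of all tested genes called higher. Their median log2 fold change was 1.26. CHAC1, which degrades glutathione, had 246, 249 and 268 normalized counts in the WT libraries and 834, 849 and 1091 in the NUAK2-CR libraries, a 3.64-fold rise (log2 fold change 1.87, SE 0.12, adjusted p = 1.04e-07). NUAK2-CR replicate 3 was the highest of its group, and all 3 were at least 834. TRIB3, a pseudokinase that holds back ATF4 and AKT signalling, had 1156, 999 and 1134 normalized counts in the WT libraries and 2755, 3095 and 3334 in the NUAK2-CR libraries (log2 fold change 1.48, SE 0.089, adjusted p = 4.54e-08). DDIT4, also called REDD1, an inhibitor of mTORC1, had 3194, 4038 and 3633 in WT and 8237, 8791 and 8900.1 in NUAK2-CR, a 2.39-fold rise with no overlap (adjusted p = 1.39e-07). The smaller changes were in PPP1R15A (GADD34), which brings a phosphatase to eIF2, at 1552 ± 84.4 in WT and 2660.4 ± 93.5 in NUAK2-CR (SD, n = 3), and in SESN2, a leucine sensor upstream of mTORC1, at 595 ± 71.4 in WT and 891 ± 72.1 in NUAK2-CR (SD, n = 3). PPP1R15A rose by 0.78 (adjusted p = 1.76e-06) and SESN2 by 0.58 (adjusted p = 0.000583) on the log2 scale, although the genes around them had medians of -0.32 and -0.60.

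Enzymes of amino acid and one-carbon metabolism rose in 8 of 8 cases, against 26.3% of all tested genes called higher. Their median log2 fold change was 1.01. ASNS, which makes asparagine and carries the C/EBP-ATF element printed above, had 765, 700.4 and 824 normalized counts in the WT libraries and 1713, 1680.0 and 2087 in the NUAK2-CR libraries. All NUAK2-CR values were at least 1680.0, against at most 824 in WT (log2 fold change 1.26, SE 0.10, adjusted p = 5.91e-07). Nearly all of its exon bases (99.5%) lie under a long non-coding RNA annotated on the same strand, which the count table does not list, so reads of the pair cannot be separated here.

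The mitochondrial enzymes of the group differed widely in fold, with SHMT2 lowest and ALDH1L2 highest of the 4. ALDH1L2, the mitochondrial enzyme that oxidizes formyl-tetrahydrofolate, had 29.9, 79.1 and 33.3 normalized counts in the WT libraries and 244, 249.6 and 285 in the NUAK2-CR libraries. WT replicate 2 was the highest of the WT libraries but stayed below every NUAK2-CR library (log2 fold change 2.47, SE 0.31, adjusted p = 2.61e-05), and without it the log2 fold change was 3.04. PCK2, the mitochondrial phosphoenolpyruvate carboxykinase, had normalized counts of 382 ± 11.3 in WT and 961 ± 35.5 in NUAK2-CR (SD, n = 3), a 2.52-fold rise (adjusted p = 1.22e-07). MTHFD2, a mitochondrial folate dehydrogenase, had 2881, 2804 and 3091 in WT and 5885, 6152 and 7326 in NUAK2-CR (log2 fold change 1.14, adjusted p = 3.67e-07), with 30.1% of its exon bases shared with SLC4A5 on the opposite strand. SHMT2, the mitochondrial serine hydroxymethyltransferase, rose by 0.50, close to the median of 0.42 for the genes around it; with the shift of those genes from the median of all genes taken off, 0.069 was left.

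The 3 enzymes of serine synthesis were called higher, with smaller folds than ASNS. PSAT1, the transaminase step, had normalized counts of 3247 ± 128 in WT and 5976 ± 556 in NUAK2-CR (SD, n = 3) and rose by 0.88 on the log2 scale (adjusted p = 1.33e-06). PHGDH, the first and rate-limiting step, rose by 0.45 (adjusted p = 0.000684) among neighbours with a median of -0.45. PSPH, the last step, had 3073, 3193 and 3459 in WT and 3569, 3690.4 and 4009 in NUAK2-CR (log2 fold change 0.21, adjusted p = 0.0267). The PSPH call was lost without WT replicate 2 (adjusted p = 0.0638), NUAK2-CR replicate 2 (0.0602) or NUAK2-CR replicate 3 (0.139).

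Secreted products of the ATF4 arm rose in 3 of 3 cases, against 26.3% of all tested genes called higher. Their median log2 fold change of 3.00 was the highest of the roles described here. INHBE encodes the inhibin beta E chain, a hormone of the TGF-beta family (gene ID 83729, chr12:57455307-57458025), and had 8.64, 15.4 and 18.3 normalized counts in the WT libraries and 166, 228 and 192 in the NUAK2-CR libraries. The 13.8-fold rise is the largest of the 33 members (log2 fold change 3.83, SE 0.29, adjusted p = 3.67e-07). It is also less precise than most, as the WT level rested on 13, 16 and 17 raw counts. A long non-coding RNA on the opposite strand overlaps 17.5% of the INHBE exon bases. GDF15, a stress hormone that acts on appetite through GFRAL (gene ID 9518, chr19:18386158-18389176), had 217, 255 and 269 normalized counts in the WT libraries and 1779, 1921 and 2199 in the NUAK2-CR libraries. All 3 NUAK2-CR libraries were at least 1779, a 7.97-fold rise of the mean (log2 fold change 3.00, SE 0.11, adjusted p = 8.96e-10). STC2, the secreted glycoprotein stanniocalcin 2, had 417, 544 and 509.5 normalized counts in the WT libraries and 1811, 1850.0 and 2064 in the NUAK2-CR libraries. It rose 3.89-fold (log2 fold change 1.97, SE 0.11, adjusted p = 1.82e-08) and fell just short of the DEG threshold, which it passed at 2.05 without WT replicate 2 and 2.02 without NUAK2-CR replicate 1.

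**Figure D2:**
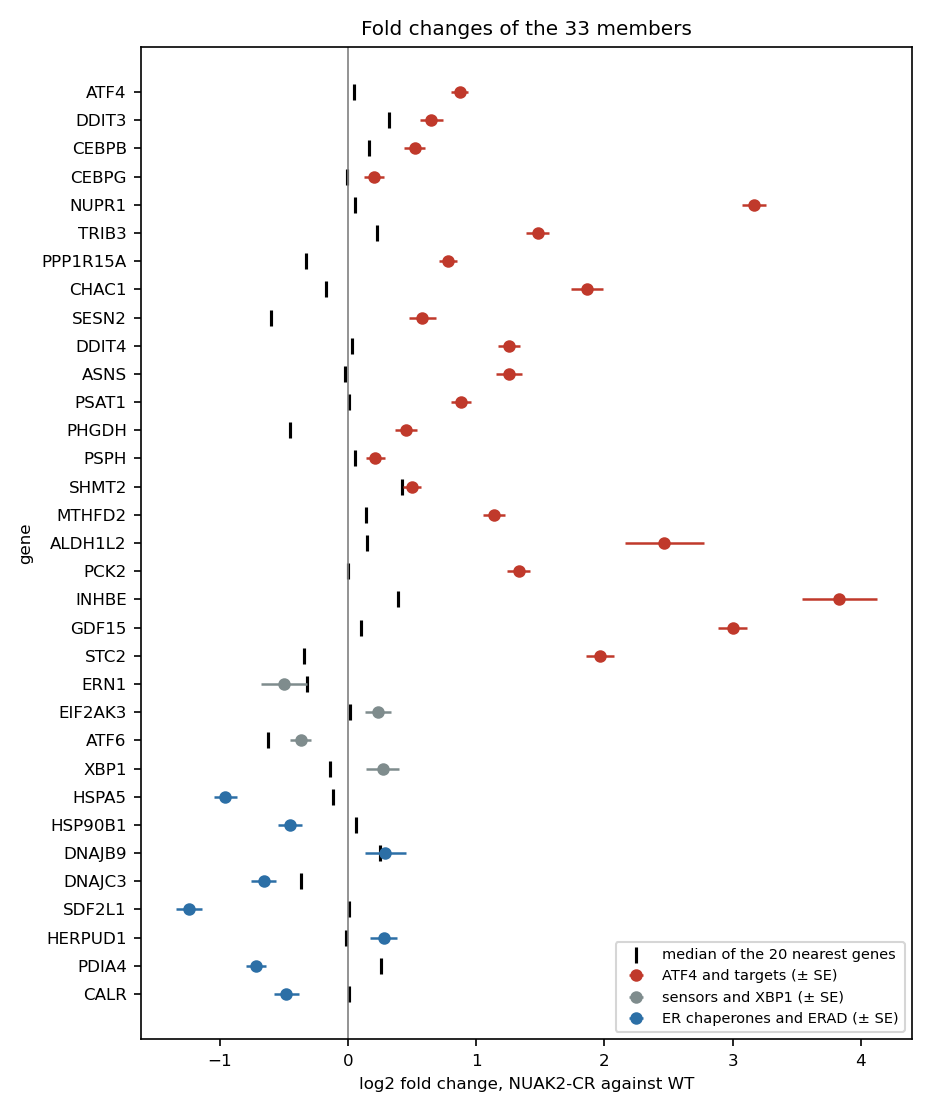
Log2 fold change, NUAK2-CR against WT, of each member (points, bars ± SE from the edgeR fit) with the median of its 20 nearest tested genes (black ticks). The ATF4 arm runs from 0.20 for CEBPG to 3.83 for INHBE, all to the right of 0, and 6 of the 8 chaperone genes lie to the left.

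Of the sensors that start the responses and XBP1, 0 of 4 rose, 2 fell (ERN1 and ATF6) and 2 were not called (EIF2AK3 and XBP1). The 50% called is near the 54.5% of all tested genes. ERN1, the IRE1 kinase and RNase that splices XBP1, had 173, 193 and 198 normalized counts in the WT libraries and 122, 117 and 158 in the NUAK2-CR libraries (log2 fold change -0.50, SE 0.18, adjusted p = 0.0318). Its groups did not overlap, but its adjusted p was 0.0726 without WT replicate 2, 0.0861 without WT replicate 3, 0.104 without NUAK2-CR replicate 1 and 0.104 without NUAK2-CR replicate 2. ATF6, the membrane-bound factor cleaved under ER stress, had 3365, 4068 and 4043 normalized counts in the WT libraries and 2904, 2923 and 3065 in the NUAK2-CR libraries (log2 fold change -0.37, SE 0.081, adjusted p = 0.00215). It fell, but the genes around it had a median of -0.63, and with their shift from the median of all genes taken off its log2 fold change was 0.25.

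EIF2AK3, the PERK kinase that phosphorylates eIF2 under ER stress, had 587, 748 and 665 in WT and 824, 744 and 785 in NUAK2-CR, and its groups overlapped (log2 fold change 0.24, adjusted p = 0.0712); without WT replicate 2 it was 0.33 (adjusted p = 0.022). XBP1, the factor that IRE1 splices into its active form, had 1827, 2352 and 2745 in WT and 2439, 2874 and 3021 in NUAK2-CR, also with overlap (log2 fold change 0.27, adjusted p = 0.0916). Its adjusted p was 0.0159 without WT replicate 3 and 0.0459 without NUAK2-CR replicate 1, where its log2 fold changes were 0.41 and 0.37. Gene counts do not distinguish spliced from unspliced XBP1.

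The ER chaperones moved the other way from the ATF4 arm: 6 of 8 fell, 1 rose and 1 was not called, and the groups did not overlap for 7. Of all tested genes, 28.2% were called lower, and the groups did not overlap for 61.4%. HSPA5 encodes BiP, the main Hsp70 of the ER and a classical marker of its stress (gene ID 3309, chr9:125234853-125241343), and had 36664, 45957 and 46901 normalized counts in the WT libraries and 21995, 22670.4 and 22071 in the NUAK2-CR libraries. The NUAK2-CR libraries were tightly grouped at 51.5% of the WT mean, below every WT library (log2 fold change -0.96, SE 0.090, adjusted p = 2.15e-06). SDF2L1, which works with BiP (gene ID 23753, chr22:21642302-21644299), had 870.2, 833 and 958 normalized counts in the WT libraries and 358, 402 and 369 in the NUAK2-CR libraries. At 42.4% of the WT mean it fell furthest of the 33 members (log2 fold change -1.24, SE 0.10, adjusted p = 5.98e-07). PDIA4, a disulfide isomerase, had 21527, 25119 and 25263 in WT and 14693, 14947 and 14118 in NUAK2-CR (log2 fold change -0.72, adjusted p = 6.32e-06), and the genes around it had a median of 0.26.

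DNAJC3, the p58IPK co-chaperone that also restrains PERK, fell by 0.66 on the log2 scale (adjusted p = 0.000108). Its WT and NUAK2-CR normalized counts were 2905 ± 393 in WT and 1841 ± 115 in NUAK2-CR (SD, n = 3). CALR, the calcium-binding chaperone calreticulin, had 57742, 75537 and 78433 in WT and 51852, 50349 and 49682 in NUAK2-CR, and HSP90B1, the ER Hsp90 also called GRP94, had 44398, 59973 and 55114 in WT and 39283, 39972 and 37482 in NUAK2-CR. CALR (log2 fold change -0.48, adjusted p = 0.00135) and HSP90B1 (-0.45, adjusted p = 0.00168) had smaller falls, and WT replicate 1 lay between the other WT libraries and the NUAK2-CR libraries for both.

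HERPUD1, which acts in ER-associated degradation, was the 1 gene of the 8 that rose. It had 1475, 1995 and 1993 normalized counts in the WT libraries and 2088, 2229.9 and 2299 in the NUAK2-CR libraries (log2 fold change 0.28, SE 0.11, adjusted p = 0.0427). Its groups did not overlap, but the call was lost without WT replicate 1 (adjusted p = 0.074), NUAK2-CR replicate 2 (0.109) or NUAK2-CR replicate 3 (0.134). DNAJB9, or ERdj4, a co-chaperone of BiP and a target of XBP1, had 347, 494 and 573 in WT and 527, 629.5 and 565 in NUAK2-CR, with overlap and an adjusted p of 0.144; without WT replicate 3 its log2 fold change was 0.45 (adjusted p = 0.0371).

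Summed over genes, the 21 ATF4 arm genes took 1116 ± 23.3 CPM (counts scaled to the library total) in WT and 2081 ± 134 in NUAK2-CR (SD, n = 3). The 8 chaperone genes took 5234 ± 651 in WT, between 4483 and 5625, and 3506 ± 35.3 in NUAK2-CR, and the sensor group 186 ± 21.5 and 178 ± 11.3. The ATF4 arm and chaperone sums therefore moved in opposite directions with no overlap between genotypes, while the sensor sums overlapped. WT replicate 1, the deepest library, was the lowest WT library for 7 of 8 chaperone genes and 4 of 4 in the sensor group, against 37.6% of all tested genes. The median coefficient of variation of the chaperone genes was 14.3% in WT and 4.10% in NUAK2-CR. Without WT replicate 1 the median log2 fold change of the chaperone genes was -0.68 and the same number, 6, fell. NUAK2-CR replicate 3 was the highest NUAK2-CR library for 17 of the 21 ATF4 arm genes, against 31.2% of all tested genes.

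Levels of different genes were compared only per length, as TMM-scaled CPM per kilobase of the canonical transcript. In WT the most abundant members on this scale were CALR at 989.7 ± 157, HSP90B1 at 509 ± 76.4, HSPA5 at 294 ± 38.5, PDIA4 at 231 ± 20.4 and ATF4 at 153 ± 5.39 (SD, n = 3). Next came SHMT2 at 75.8 ± 4.31 and PHGDH at 71.1 ± 8.77, neighbours in this order that did not differ beyond their spread. In NUAK2-CR, ATF4 at 280.0 ± 14.3 stood above HSPA5 at 151 ± 2.52 and PDIA4 at 141 ± 4.09. GDF15 went from 5.48 ± 0.592 to 43.7 ± 4.75. The canonical transcripts of NUPR1 (5291 bases) and MTHFD2 (4403 bases) are long, and a shorter one would place these genes higher on this scale. INHBE, the gene with the largest fold, remained among the least abundant, at 0.153 ± 0.0537 in WT and 2.12 ± 0.335 in NUAK2-CR.

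**Figure D3:**
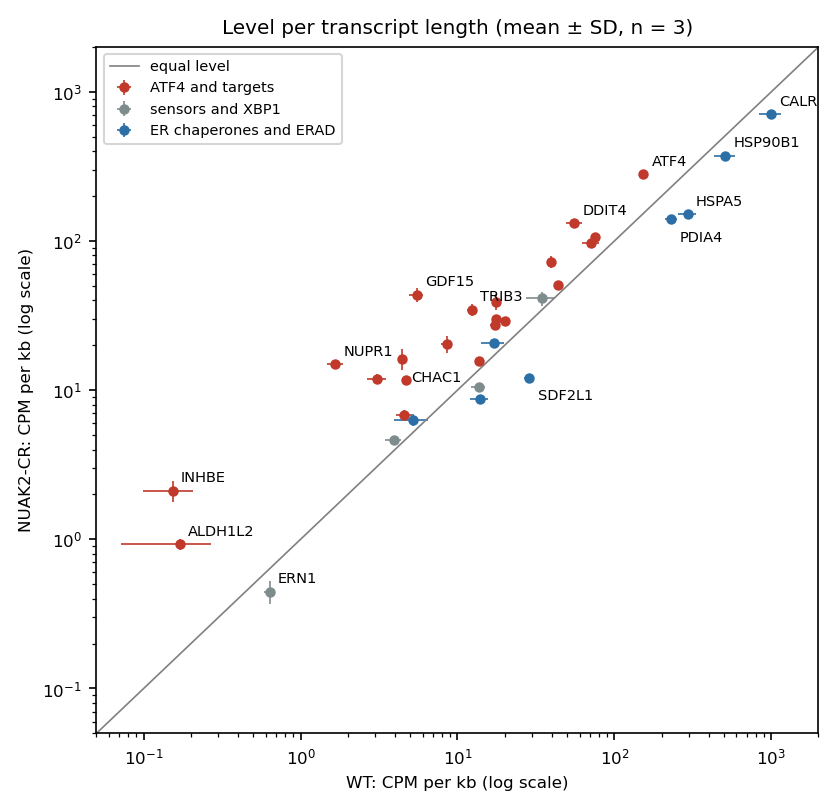
Level of each member in WT (x axis) and NUAK2-CR (y axis), in CPM per kilobase on log axes, as mean ± SD of 3 libraries; the line marks equal levels. The ATF4 arm lies above the line at every abundance, from INHBE at 0.153 to ATF4 at 153.0 in WT, and HSPA5, PDIA4 and SDF2L1 lie below it.

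Some members sit in stretches of the genome whose genes shifted together, so each was also set against its 20 nearest tested genes, by taking off the shift of their median from that of all genes. INHBE, DDIT3 and SHMT2 lie close together on chromosome 12 and had neighbour medians of 0.39, 0.32 and 0.42. SESN2, PHGDH and ATF6 lie on chromosome 1, as NUAK2 does, and had neighbour medians of -0.60, -0.45 and -0.63. On that scale, all 21 ATF4 arm genes kept their sign with a median of 1.17, and all 8 chaperone genes kept theirs with a median of -0.51, while ATF6 was the 1 member of the 4 in the sensor group whose sign turned.

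Further genes of the same pathways were described from lists chosen with earlier results of these data known. Of 18 other ATF4 target genes tested, 14 rose and 3 fell, with a median log2 fold change of 0.81. Of all tested genes, 26.3% were called higher and 28.2% lower. The risers included JDP2, an AP-1 family repressor, at 160.1 ± 31.8 in WT and 498 ± 48.0 in NUAK2-CR (SD, n = 3), SLC6A9, a glycine transporter, at 372 ± 24.4 in WT and 1112 ± 116 in NUAK2-CR (SD, n = 3), and SLC7A5, a transporter of large neutral amino acids, at 5485 ± 398 in WT and 13022 ± 1125 in NUAK2-CR (SD, n = 3). Their log2 fold changes were 1.65, 1.58 and 1.25. The 3 that fell were CTH, which makes cysteine (-1.15), VLDLR, a lipoprotein receptor with normalized counts of 7969 ± 1252 in WT and 3972 ± 153 in NUAK2-CR (SD, n = 3), and SLC7A1, a cationic amino acid transporter (-0.54). FGF21, a further hormone of the ATF4 arm, had too few counts to be tested, with 0 counts in 5 libraries and 4 in NUAK2-CR replicate 2.

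Among 10 genes of the eIF2 kinases, the eIF2B exchange factor and the eIF2 phosphatase, 2 rose and 6 fell, with a median of -0.41. Of all tested genes, 26.3% were called higher and 28.2% lower. EIF2B2 (0.41), a subunit of eIF2B, and EIF2AK2 (0.30), the kinase PKR, rose. EIF2B3 (-0.85, adjusted p = 1.28e-05), EIF2AK4 (-0.70, adjusted p = 1.76e-06), which encodes the amino acid sensing kinase GCN2, and EIF2B4 (-0.54) fell most. Of 11 other enzymes of serine, glycine and folate metabolism, 3 rose and 2 fell. The 45.5% called is below the 54.5% of all tested genes. GLDC, of the glycine cleavage system (1.07), and MTHFD1 (0.42) were the named risers, and SHMT1, the cytosolic counterpart of SHMT2, fell (-0.87).

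Of 20 cytosolic aminoacyl-tRNA synthetases, several of which ATF4 is known to drive, 6 rose, 7 fell and 7 were not called, with a median of -0.077. These shares are near the 26.3% and 28.2% of all tested genes, and 1 call in each direction was set by a single library. AARS1 (0.76), GARS1 (0.62) and MARS1 (0.53), which charge alanine, glycine and methionine, rose, and RARS1 (-0.52) and EPRS1 (-0.40) fell. With the shift of the 20 nearest genes taken off, AARS1 was left at 0.64, GARS1 at 0.34 and MARS1 at 0.17. On that scale RARS1 was left at -0.069 and EPRS1 at -0.17. A value of -3.49 for VARS1 rested on WT replicate 1, which had 548 raw counts while no other library had over 16. It lies in a region of chromosome 6, between 29 and 34 Mb, where 144 of 167 protein-coding genes had under 100 counts over the 6 libraries, against 32.8% of all protein-coding genes, so low counts there do not show low expression. None of the 33 members lies in it. Likewise CARS1, at 2.51, had 203 raw counts in NUAK2-CR replicate 3 and at most 27 elsewhere.

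Other ER folding factors moved with the chaperone members: of 15 tested, 1 rose and 11 fell, with a median of -0.37. Of all tested genes, 26.3% were called higher and 28.2% lower. CANX, the lectin chaperone calnexin, had normalized counts of 71146 ± 13614 in WT and 40319.6 ± 342 in NUAK2-CR (SD, n = 3) and a log2 fold change of -0.82. ERO1B, an oxidase for disulfide bonds (-0.92), and DNAJB11, a co-chaperone of BiP (-0.75), also fell, and DNAJC10, a disulfide reductase, rose (0.27). Of 21 factors of ER-associated degradation and translocation, 7 were higher and 4 lower, with a median of 0.054; the 52.4% called is near the 54.5% of all tested genes. The named risers were DERL1 (0.54), SEC63 (0.43) and UBE2J1 (0.40), and VCP (-0.53), DERL2 (-0.46) and SEC61B (-0.35) fell. Of 6 genes that process ATF6 or belong to the related CREB3 family, CREB3L2 (0.70) and the protease gene MBTPS1 (0.29) rose, and CREB3L1 (-0.35) and MBTPS2 (-0.35) fell. The 66.7% called stood beside the same 54.5% of all tested genes. With the shift of the 20 nearest genes taken off, 7 of the 81 called genes of all 9 pathway lists turned sign, among them DNAJC10 (-0.22), CREB3L1 (0.12) and DERL1 (-0.038), and SLC7A1 was left at -0.0087.

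**Figure D4:**
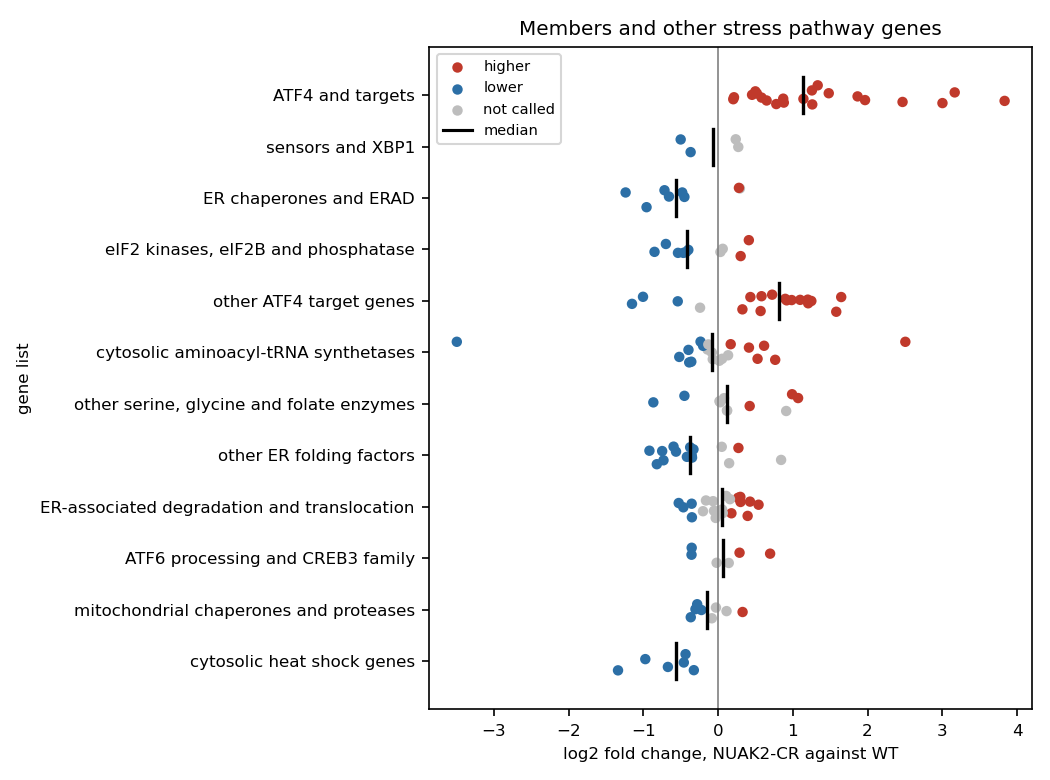
Log2 fold change, NUAK2-CR against WT, of each tested gene (points) in the members' 3 groups and in 9 other lists, coloured by the call at an adjusted p under 0.05, with list medians as black bars. The ATF4 arm (median 1.14) and the other ATF4 targets (0.81) lie mostly right of 0, and the chaperones (-0.57) and other ER folding factors (-0.37) mostly left; the far points of the synthetases are VARS1 and CARS1, each set by 1 library.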

How the data were processed

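TRIzol-extracted RNA went into the Illumina stranded mRNA kit. The authors used Trimmomatic for trimming, HISAT2 for alignment to hg38 and featureCounts for counting, at default parameters, and deposited raw counts per gene by NCBI gene ID. The annotation and strand setting are not given in the sources used here, so values of members that overlap another gene are uncertain.

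Symbols were matched for 27745 of 28395 IDs. Counts were fitted in R 4.3.3 with edgeR 4.0.16 (filterByExpr, TMM, glmQLFit, glmQLFTest, prior count 0.125) without covariates, with Benjamini-Hochberg adjustment over 14873 genes. Each SE is the absolute log2 fold change over the root of F. Normalized counts are scaled to the mean effective library size. Lengths are those of GENCODE canonical transcripts. The fit was tested on simulated data. Replicate libraries differed by more than sampling noise (chi-square per degree of freedom 6.37 to 56.0), so none was a copy.

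The members and lists were chosen with earlier results of these data known. All members were described, and up to 3 genes per direction from each other list, with the largest absolute log2 fold change, an adjusted p under 0.05 and 100 or more normalized counts on average in the group that was higher; CARS1, PECAM1, AQP4, PTPRC, EPCAM, FGF21, HSPA1A and HSPA1B were named outside this rule after their values were seen. A gene that the rule would name is not reported here. Alternatives were DESeq2 1.42.0, RLE and library size scaling, filters of 1 count in any library and of 10 in every library, thinning to the smallest library, a prior count of 2, a log2 threshold of 1, a replicate block and leaving out each library. Python with pandas and matplotlib prepared tables and figures.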

Additional observations from a re-analysis of the deposited data

How the results depend on the processing

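No member changed sign under any alternative run, and of the values for members and NUAK2 under an alternative, 452 kept their side of the threshold, 17 lost the call and 7 gained it. The 6 falling chaperones kept their calls under every alternative. Of the ATF4 arm, 19 to 21 genes rose when 1 library was left out, CEBPG and PSPH being the 2 that lost calls; CEBPG also lost its call with a filter of 1 count (adjusted p = 0.0529). With an absolute log2 fold change over 1, 11 members passed upward and 1 downward, against 1027 and 1035 genes of the table. A filter of 10 counts in every library left 187 higher and 152 lower DEGs in the table. DESeq2 left 1 lower gene in the sensor group, as ERN1 lost its call (DESeq2 adjusted p = 0.05003). A filter of 1 count added 1 higher gene there (XBP1, adjusted p = 0.0235). Thinning left 0 higher chaperones (HERPUD1, edgeR adjusted p = 0.0512). Deviations of same-numbered libraries correlated at 0.043, -0.035 and 0.048, so the numbers were not taken as pairs; the replicate block gave 1 higher gene in the sensor group (XBP1, adjusted p = 0.00779) and 2 higher chaperones (DNAJB9 added, adjusted p = 0.0478); the table counts under the block were 3972 higher and 4195 lower. Leaving out 1 library in turn, the sensor group had 0 to 1 higher and 1 to 2 lower genes and a median of -0.16 to -0.019, and the chaperones had 0 to 2 higher genes and a median of -0.68 to -0.51. Depth limits INHBE and ALDH1L2 most.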

Other observations

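Heat shock genes of the cytosol fell beside the ER chaperones. Of 6 tested, 6 were lower and none higher in NUAK2-CR, with a median log2 fold change of -0.56. Of all tested genes, 28.2% were called lower. HSP90AA1, the inducible cytosolic Hsp90, had normalized counts of 148653 ± 2317 in WT and 75725 ± 2603 in NUAK2-CR (SD, n = 3) (-0.97 on the log2 scale, edgeR adjusted p = 7.09e-08). HSPH1, an exchange factor for Hsp70, stood at 17799.9 ± 306 in WT and 7039.8 ± 236 in NUAK2-CR (SD, n = 3) (-1.34, edgeR adjusted p = 6.34e-09), and DNAJB1, an Hsp40, fell by 0.67 on the log2 scale. HSPA1A and HSPA1B, near-identical copies, had at most 6 counts in any library and were not tested; they lie in the region of chromosome 6 where most genes had few counts, so this does not show low expression.

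Mitochondrial chaperones and proteases changed less. Of 8 tested, 1 was higher and 4 were lower, with a median of -0.15. The 62.5% called is near the 54.5% of all tested genes. LONP1, the matrix protease, was at 3893 ± 521 in WT and 4891 ± 45.3 in NUAK2-CR (SD, n = 3) (0.33, edgeR adjusted p = 0.00718). The lower genes included the chaperone genes HSPE1 (-0.36) and HSPA9 (-0.28, which turned to 0.019 with the shift of its 20 nearest genes taken off) and the protease subunit CLPP (-0.30), so the mitochondrial list did not move in 1 direction.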
